A study of Mus musculus with 12 samples.

Results

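Nuclear oxidative phosphorylation (OXPHOS) genes encode the parts of the respiratory chain and of the ATP synthase that are made by cytosolic ribosomes and imported into mitochondria. Complexes I and II pass electrons to ubiquinone, complex III passes them to cytochrome c, and complex IV passes them to oxygen. The proton gradient that complexes I, III and IV build is used by complex V, the ATP synthase, to make ATP. A small set of core subunits is encoded by mitochondrial DNA and is not part of the description here.

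The genes were chosen by name alone, as symbols that start with Nduf followed by a, b, c, s or v and a number, with Uqcr, with Cox4 to Cox8 or with Atp5, together with Sdha to Sdhd. This rule found 84 of the 20661 genes in the files. Of these, 35 belong to complex I, 4 to complex II, 8 to complex III, 18 to complex IV and 15 to complex V. The remaining 4 (Atp5s, Atp5sl, Cox7a2l and Ndufa4l2) match the rule without being core subunits and were counted apart. Ndufa4 was counted in complex IV, of which it is a subunit.

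RNA and ribosome footprints were measured in mouse embryonic fibroblasts (MEFs) of 3 groups, each with 2 replicates per assay, which gave 12 libraries. WT-shSCR MEFs were wild type and received a lentiviral scrambled short hairpin RNA, the group labelled WT-shARF received a hairpin against Arf, and Arf-/--shSCR MEFs carried the germline Arf deletion, in which a neo cassette replaces exon 1β of Cdkn2a, and received the scrambled hairpin. All groups were at passage 4, and all had passed through lentiviral transduction and puromycin selection. Wild-type MEFs are labelled C57BL/6J and knockout MEFs B6.129X1-Cdkn2atm1Cjs/KaiJ, while the methods give B6129SF2/J for the wild type, so strain and genotype cannot be told apart. Whether replicates came from separate cultures or embryos is not stated, and p-values then measure only the spread between these samples, which may be technical.

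Reads on coding sequences ranged from 1578627 to 3989908 per RNAseq library and from 2544319 to 5157572 per footprint library, and OXPHOS genes took 1.075% to 1.126% and 1.096% to 1.187% of them. The paper shows the knockdown and the knockout of ARF in MEFs by immunoblot, which reads protein. At the RNA level, Cdkn2a, the gene of ARF and INK4A, goes against a label. On a scale normalized for sequencing depth (CPM, with library sizes adjusted by TMM factors), its RNA lay at 41.9 and 44.8 in WT-shSCR MEFs and at 27.7 and 32.2 in Arf-/--shSCR MEFs. In those labelled WT-shARF it lay at 643.7 and 668 CPM. Counts per gene do not separate ARF from INK4A, and the word "labelled" is kept for this group throughout. All 10 fibroblast markers were detected in every RNAseq library. Their summed level was 21330 to 24770 CPM in WT-shSCR, 22130 to 22300 CPM under the WT-shARF label and lower, at 16240 to 17470 CPM, in Arf-/--shSCR. They did not fall as a set. Of 9 tested in the knockout, 2 rose and 1 fell, with a median log2 fold change of -0.04 (edgeR, adjusted p under 0.05). Of 8 tested under the WT-shARF label, 2 rose and 1 fell, with a median of 0.13. The summed level of 10 macrophage markers was 578 to 612 CPM in WT-shSCR, 204 to 279 CPM under the WT-shARF label and 36.8 to 66.1 CPM in Arf-/--shSCR. Among them Csf1r, the receptor that macrophages depend on, lay at 101.7 and 104.5 CPM in WT-shSCR, 64.8 and 48.3 CPM under the WT-shARF label and 8.01 and 9.45 CPM in the knockout, and only Fcgr1 was at 0, in 1 knockout library. Of the 10, 8 fell in the knockout and 5 under the WT-shARF label (edgeR, adjusted p under 0.05). The summed level of 8 epithelial or mesothelial markers was 157.6 to 179 CPM in Arf-/--shSCR against 96.8 CPM in both WT-shSCR libraries and 57.9 to 68.4 CPM under the WT-shARF label. The part of these shifts in the results that follow was not tested. In bulk samples, fewer cells of a type and less RNA per cell cannot be told apart.

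Of the 84 members, 7 were barely detected or not detected, and all are isoforms known from particular tissues. Cox4i2, Cox6a2, Cox6b2, Cox7a1, Cox7b2, Cox8b and Cox8c had 0 to 4 RNA counts and 0 to 8 footprints in any library, and none passed the filter on low counts. Their common partners were abundant, with Cox4i1, the general isoform of the subunit that sits at the matrix side of complex IV, at 345 to 581 CPM of RNA over the 6 libraries. Cox6a1 lay at 107 to 184 CPM, Cox6b1 at 86.3 to 149.5 CPM, Cox7a2 at 75.7 to 101.7 CPM and Cox8a at 78.6 to 136 CPM. Ndufa4l2, a relative of Ndufa4 that hypoxia is known to induce, had 125 RNA counts in all (3.22 to 14.2 CPM) and 0 footprints in each of the 6 footprint libraries. A count of 0 allows up to 3 counts per library, so translation of Ndufa4l2 was not detectable at this depth. In the RNA and footprint comparisons, 76 of the 84 members were tested, and 77 in those of translation efficiency (TE), the footprints per RNA of a gene.

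Transcription of many OXPHOS genes is known to be driven by NRF1, by ETS-family factors such as GABP, and by YY1, and the first bases of an mRNA decide whether it carries a 5′-TOP motif, the pyrimidine tract through which mTOR regulates the translation of ribosomal protein mRNAs. RefSeq start windows (GRCm38.p6, 250 bases before to 50 after the start) were given for 69 members. The letters GCGCATGC of the NRF1 core, read on both strands, stood in the window of 14.5% of members and of 4.18% of all 16571 genes with a window. CCGGAAG of the ETS core stood in 23.2% against 13.4%, and AAGATGGC of the YY1 core in 15.9% against 3.73%. A C followed by at least 4 pyrimidines opened the annotated mRNA of 4 members (Atp5d, Atp5g2, Ndufb11 and Uqcrfs1), which is 5.8% against 2.72% of all genes and 19.4% of cytosolic ribosomal protein genes. A match of letters is a description of the window and not a mapped site.

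The stretches shown belong to members that passed a test in the comparisons below. In the first 3 lines capitals mark the NRF1 core letters, which overlap on both strands where the run is longer than 8 bases. The lines are, in order, chr15:102671070-102671099, chr5:115349101-115349130 and chr9:44920963-44920992, all minus strand of GRCm38.p6 and all upstream of the RefSeq start.
Atp5g2, NRF1 core: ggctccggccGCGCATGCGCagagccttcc
Cox6a1, NRF1 core: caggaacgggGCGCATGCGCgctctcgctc
Atp5l, NRF1 core: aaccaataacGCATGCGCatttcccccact

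The first 15 bases at the annotated start are shown for Atp5g2 beside 2 members whose footprints moved with it, with the leading pyrimidines in capitals. They lie at chr15:102671033-102671047, chr16:91931616-91931630 and chr2:73911312-73911326, all on the minus strand of GRCm38.p6. Of these, only Atp5g2 opens with a C followed by at least 4 pyrimidines, in a run of 8. Annotated starts can miss a 5′-TOP motif. The start given for Tpt1, which is on the study's list of known 5′-TOP genes, has a pyrimidine run of 0. A short run here therefore does not show that an mRNA lacks the motif.
Atp5g2, mRNA start: CCCTCTCTgtcttct
Atp5o, mRNA start: CTggcgcgcgcgcgt
Atp5g3, mRNA start: aagagccgcaccgcg

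RNA of the OXPHOS genes was lower in Arf-/--shSCR MEFs for a few small subunits of complexes IV and V. None of the 76 members tested rose (3.94% of all 10659 genes did), and 4 fell, which is 5.26% against 3.99% of all genes and so close to the background. Calls are at an adjusted p under 0.05 from edgeR's quasi-likelihood F test, adjusted over all genes after Benjamini and Hochberg. At an unadjusted p under 0.05, 0 of 76 members were higher and 18 lower, beside 1169 higher and 1209 lower of all 10659 genes. DESeq2 called 0 members in either direction. The median log2 fold change was -0.15 over the members and 0.00 over all genes. Above 0 were 29 members (38.2%) against 49.6% of all genes.

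Cox8a and Cox6a1 are small membrane subunits of complex IV. Cox8a RNA lay at 136 and 113 CPM in WT-shSCR and at 83.4 and 78.6 CPM in Arf-/--shSCR, a log2 fold change of -0.63 (SE 0.18, adjusted p = 0.0415, edgeR). Cox6a1 RNA lay at 184 and 162.5 CPM against 107 and 119.8 CPM, a log2 fold change of -0.62 (SE 0.17, adjusted p = 0.0284, edgeR). Both knockout libraries were below both controls for each gene. Atp5l and Atp5j2 encode subunits g and f in the membrane part of the ATP synthase. Atp5l RNA lay at 165 and 151.6 CPM against 112.5 and 94.9 CPM (log2 fold change -0.61, SE 0.17, adjusted p = 0.0335, edgeR), and Atp5j2 RNA at 137 and 134.8 CPM against 83.0 and 95.8 CPM (-0.61, SE 0.18, adjusted p = 0.0396, edgeR). For these genes too the groups did not overlap. The share of all genes without overlap was not counted, here or in later comparisons, so a lack of overlap adds no support to a call. These calls depend on single libraries. Leaving out either WT-shSCR library left 0 members called.

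In the libraries labelled WT-shARF, RNA of 7 members fell and of 0 rose. The 7 are 9.21% of the 76 members tested against 4.17% of all 10503 genes, and 3.11% of all genes rose. At an unadjusted p under 0.05, 1 of 76 members was higher and 18 lower, beside 1026 higher and 1189 lower of all 10503 genes. DESeq2 called 0 members higher and 4 lower. The median log2 fold change was -0.17 over the members and 0.00 over all genes. Above 0 were 13 members (17.1%) against 49.8% of all genes. This comparison shares its WT-shSCR libraries with that of the knockout, so the values stand side by side and are not independent of each other.

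The members that fell came from complexes I, II, IV and V. Ndufa7 and Ndufb7 are accessory subunits of complex I. Ndufa7 RNA lay at 84.0 and 85.8 CPM in WT-shSCR and at 46.1 and 43.8 CPM under the WT-shARF label (log2 fold change -0.93, SE 0.19, adjusted p = 0.00216, edgeR). Ndufb7 RNA lay at 83.6 and 71.6 CPM against 35.9 and 49.0 CPM (-0.85, SE 0.20, adjusted p = 0.00745, edgeR). Sdhc, a membrane anchor of complex II that helps to bind ubiquinone, lay at 115.6 and 110.9 CPM against 59.0 and 68.9 CPM (-0.82, SE 0.18, adjusted p = 0.00317, edgeR). In the Arf-/--shSCR libraries, Sdhc RNA lay at 80.5 and 76.4 CPM, also below both controls, but did not pass the test (log2 fold change -0.53, SE 0.18, adjusted p = 0.0835, edgeR).

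From complex IV, 3 subunits were among them. Cox4i1 RNA lay at 581 and 517 CPM in WT-shSCR and at 363 and 345 CPM under the WT-shARF label (log2 fold change -0.64, SE 0.13, adjusted p = 0.00179, edgeR). Cox6a1 RNA lay at 114 CPM in both labelled libraries (-0.61, SE 0.15, adjusted p = 0.0105, edgeR), level with the knockout libraries. Cox6b1, the subunit on the intermembrane side of complex IV, lay at 149.5 and 117 CPM against 86.3 and 92.1 CPM (-0.59, SE 0.17, adjusted p = 0.0271, edgeR). Without WT-shSCR replicate 1 the value of Cox6b1 was -0.39, and its call was kept in 1 of 4 fits with a library left out. From complex V, Atp5j2 RNA lay at 99.7 and 90.7 CPM in the labelled libraries (-0.53, SE 0.16, adjusted p = 0.0412, edgeR). Leaving out 1 library at a time gave 2 to 10 members called, with 2 when either labelled library was left out and 3 without WT-shSCR replicate 1.

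**Figure D1:**
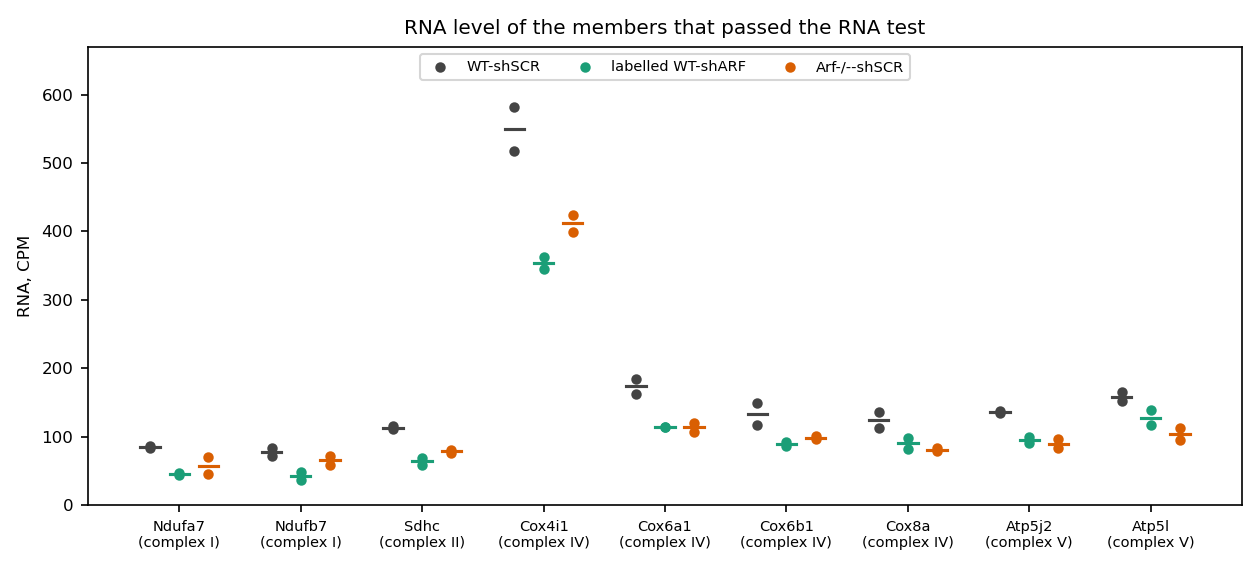
RNA level in CPM (vertical axis, from 0) of the 9 members whose RNA passed the test in either comparison with WT-shSCR. Points are single libraries and bars are means of 2, and the WT-shSCR points are above the points of the group in which the gene was called, as for Cox4i1 at 581 and 517 CPM against 363 and 345 CPM.

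Summed by complex, the RNA of complexes II and IV lay below both WT-shSCR libraries in every library of both other groups. With so few libraries per group such a separation can arise by chance, and both comparisons share the WT-shSCR libraries. The 18 members of complex IV summed to 1653 and 1540.0 CPM in WT-shSCR, 1195 and 1224 CPM under the WT-shARF label and 1228 and 1281 CPM in Arf-/--shSCR. The median log2 fold change of its 11 tested members was -0.33 under the WT-shARF label and -0.42 in the knockout. The footprints of the same 18 genes summed to 2002 and 1904 CPM, 1864 and 1851 CPM, and 1781 and 1872 CPM, again below both controls in both groups, by smaller gaps. Complex II RNA summed to 593 and 591.5 CPM in WT-shSCR, 513 and 504 CPM in the labelled libraries and 518.5 and 508 CPM in the knockout. Complex V, the most abundant, did not separate, with RNA sums of 4958 to 5260 CPM over the 6 libraries. Complex I RNA summed to 3133 and 2791 CPM in WT-shSCR, 2630 and 2573 CPM in the labelled libraries, below both controls, and 2706 and 2881 CPM in the knockout, which overlapped the controls. Complex III sums, 1008 to 1199 CPM, overlapped between groups. These sums were not tested, and how often sums of other gene sets separate in this way was not counted. The lack of overlap therefore does not show a change of a complex.

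Footprints of 6 of the 15 ATP synthase members were higher in Arf-/--shSCR MEFs. Of the 76 members tested, 6 rose, which is 7.89% against 9.57% of all 10737 genes, and 1 fell, against 8.95% of all genes. So the members as a whole were called no more often than other genes, and the 6 that rose were all among the 15 members of complex V, of which they are 40%. At an unadjusted p under 0.05, 13 of 76 members were higher and 5 lower, beside 1623 higher and 1594 lower of all 10737 genes. DESeq2 called 6 members higher and 0 lower. Of complex V, 11 members (73.3%) were above 0 against 49.9% of all genes. The lowest log2 fold changes of the complex were those of Atp5l (-0.30), Atp5j2 (-0.28) and Atp5e (-0.19), which did not pass. The median log2 fold change was 0.01 over the members, 0.18 over complex V and 0.00 over all genes.

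Atp5g1, Atp5g2 and Atp5g3 encode the same mature c subunit of the proton-driven ring. Atp5g2 footprints lay at 139.6 and 165 CPM in WT-shSCR and at 217 and 226 CPM in Arf-/--shSCR, a log2 fold change of 0.56 (SE 0.12, adjusted p = 0.00107, edgeR). Atp5g3 footprints lay at 428 and 439 CPM against 554 and 558 CPM (0.37, SE 0.09, adjusted p = 0.00237, edgeR). Atp5g1 footprints lay at 173 and 156.5 CPM against 188 and 187 CPM, a log2 fold change of 0.20 that did not pass the test. Thus 2 of the 3 genes passed, and a rise of Atp5g1 was not shown.

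The other calls were in the catalytic head and the stalk that holds it. Atp5a1, the α subunit, lay at 839 and 915 CPM of footprints against 996 and 1055 CPM (log2 fold change 0.24, SE 0.08, adjusted p = 0.0288, edgeR). Atp5c1, the γ subunit that turns inside the head, lay at 216 and 199.8 CPM against 269 and 265.5 CPM (0.37, SE 0.11, adjusted p = 0.0147, edgeR). Atp5o, the OSCP subunit that joins the stalk to the head, lay at 162 and 151 CPM against 222 and 194.7 CPM (0.42, SE 0.12, adjusted p = 0.0128, edgeR). Atp5j, coupling factor 6 of the stalk, lay at 104.6 and 111.5 CPM against 142 and 141 CPM (0.41, SE 0.13, adjusted p = 0.0315, edgeR). For these 4 genes no knockout library overlapped a control. Atp5b, the catalytic β subunit, which was among the genes that normalized the study's qPCR, lay at 1506 and 1531 CPM against 1674 and 1727 CPM and did not pass (0.18, SE 0.07, adjusted p = 0.0669, edgeR). Its RNA lay at 2075 and 1991 CPM in WT-shSCR, 1973 and 2013 CPM under the WT-shARF label, and 2072 and 1991 CPM in the knockout, so the RNA of this gene did not separate the groups.

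The single member whose footprints fell in the knockout was Cox6a1, at 216 and 174 CPM against 135.6 and 156 CPM (log2 fold change -0.41, SE 0.13, adjusted p = 0.0241, edgeR), in the same direction as its RNA. It was -0.23 without WT-shSCR replicate 1 and -0.55 without WT-shSCR replicate 2, and the call was kept in 1 of 4 fits with a library left out. The calls on footprints rest on both WT-shSCR libraries. Without either of them 0 members passed. Pseudogenes named after Atp5c1, Atp5k, Atp5l and Uqcrh are annotated, and reads aligning to more than one place were not counted, so values of these 4 genes may be incomplete.

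Fewer members passed in the libraries labelled WT-shARF. Footprints of 3 rose, which is 3.95% of 76 against 5.63% of all 10307 genes, and of 1 fell, against 5.5% of all genes. All 4 belong to complex V. DESeq2 called 1 member higher and 0 lower. At an unadjusted p under 0.05, 11 of 76 members were higher and 5 lower, beside 1227 higher and 1193 lower of all 10307 genes. Atp5g2 footprints lay at 203 and 199.3 CPM in the labelled libraries (log2 fold change 0.41, SE 0.12, adjusted p = 0.0226, edgeR), Atp5o at 212 and 195.6 CPM (0.38, SE 0.12, adjusted p = 0.0310, edgeR) and Atp5c1 at 245 and 275 CPM (0.33, SE 0.11, adjusted p = 0.0426, edgeR). Each lay above both controls. Atp5l footprints fell, from 224 and 210.5 CPM to 159.5 and 171 CPM (-0.39, SE 0.11, adjusted p = 0.0209, edgeR). Its footprints in the knockout libraries, 168 and 181 CPM, were also below both controls, with a log2 fold change of -0.30 that did not pass. Leaving out 1 library at a time gave 0 to 5 members called, with 0 when either labelled library was left out.

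**Figure D2:**
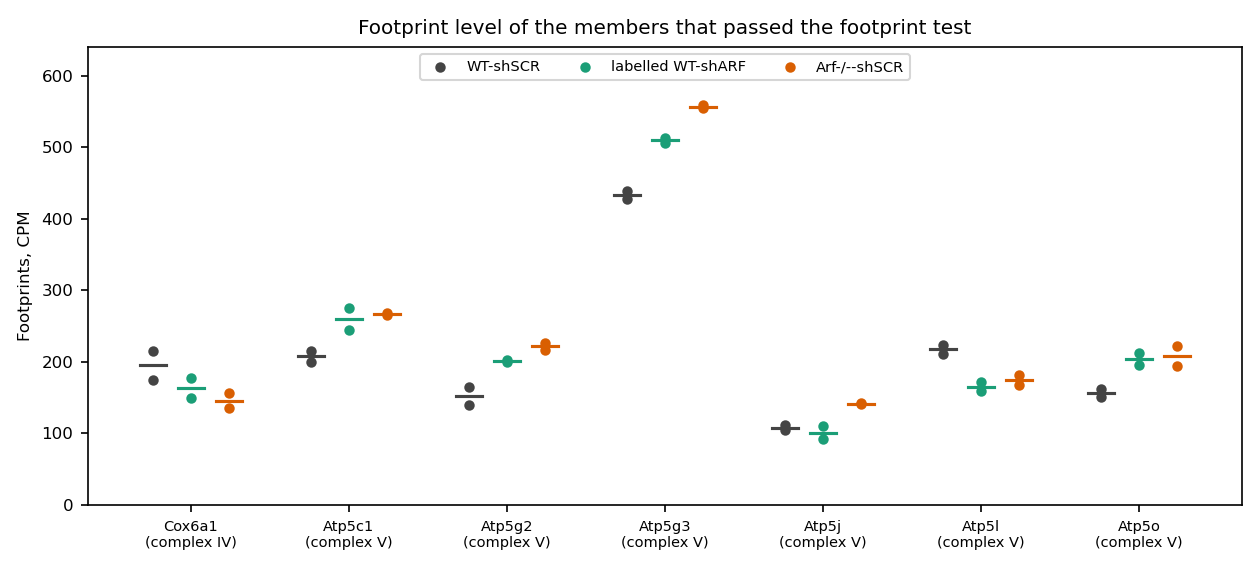
Footprint level in CPM (vertical axis, from 0) of 7 members whose footprints passed the test in any comparison. Atp5a1, at 839 to 1075 CPM, is left out for its scale. Points are single libraries and bars are means of 2, and Atp5g2, Atp5o and Atp5c1 are higher in both other groups than in WT-shSCR.

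A direct comparison of Arf-/--shSCR with the libraries labelled WT-shARF tests where the groups differ. For RNA, 0 of 76 members passed (2.57% of all 10632 genes did). At an unadjusted p under 0.05, 5 of 76 members were higher and 2 lower, beside 851 higher and 889 lower of all 10632 genes. DESeq2 called 0 members too. For footprints, 1 of 76 passed, which is 1.32% against 8.23% of all 10941 genes. It was Atp5j, at 142 and 141 CPM in the knockout against 92.4 and 109.8 CPM under the WT-shARF label (log2 fold change 0.48, SE 0.12, adjusted p = 0.0205, edgeR). Atp5j RNA lay at 64.1 and 63.1 CPM in the knockout against 75.04 and 75.7 CPM, a log2 fold change of -0.25 that did not pass. For the other members a difference between these groups was not shown, which does not show that they were equal.

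**Figure D3:**
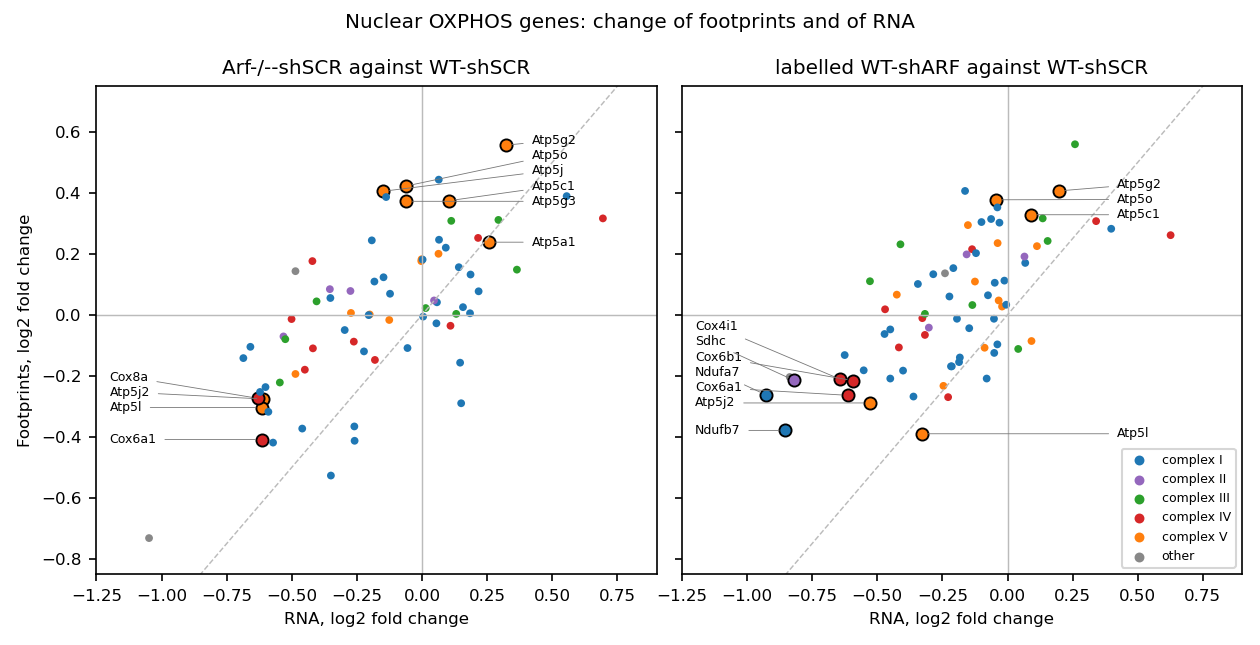
Log2 fold change of footprints (vertical axis) against that of RNA (horizontal axis) for each member tested in both, coloured by complex, with members that passed either test outlined and named. The dashed line marks equal change, and the 6 complex V members that rose in footprints span RNA changes from -0.15 for Atp5j to 0.32 for Atp5g2 in the left panel.

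TE did not pass the test for any single member. In Arf-/--shSCR against WT-shSCR, 0 of 77 members were called (0.194% of all 11314 genes were). At an unadjusted p under 0.05, 5 members were higher and 0 lower, beside 326 higher and 447 lower of all 11314 genes. In the libraries labelled WT-shARF, 0 of 77 were called (0.0354% of all 11289 genes). At an unadjusted p under 0.05, 9 were higher and 0 lower, beside 430 higher and 321 lower of all genes. Between the knockout and the labelled libraries 0 of 77 were called (0.043% of all 11632 genes). At that level 1 was higher and 3 lower, beside 431 higher and 449 lower of all genes. DESeq2 also called 0 in each.

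The median TE change of the members lay above that of all genes and below that of cytosolic ribosomal proteins. The median log2 fold change of TE in the knockout was 0.16 over the members and -0.04 over all genes. Above 0 were 53 of 77 members (68.8%) against 46.6% of all genes. Without a filter on low counts the members' median in the knockout was 0.28. In the labelled libraries the median was 0.26 over the members and 0.01 over all genes. There 66 of 77 members (85.7%) were above 0 against 50.7% of all genes. By complex, the medians in the knockout were 0.10 for I, 0.36 for II, 0.07 for III, 0.18 for IV and 0.24 for V, and 14 of 15 members of complex V were above 0. In the labelled libraries they were 0.23 for I, 0.32 for II, 0.25 for III, 0.33 for IV and 0.22 for V. Cytosolic ribosomal proteins, the mRNAs with 5′-TOP motifs, had medians of 0.47 and 0.43 over 78 genes, and mitochondrial ribosomal proteins, another set made in the cytosol for the mitochondrion, of 0.06 and 0.16 over 77 genes. The members are short, with a median coding length of 438 bases against 1512 bases over all genes tested. With the trend of TE change on coding length removed, the members' medians were 0.12 and 0.14, so the value in the labelled libraries moved by more than 1.5 times.

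RNA and footprints entered the TE change differently between genes. For Sdhc, footprints lay at 128.5 and 113 CPM in WT-shSCR and 110.8 and 98.2 CPM under the WT-shARF label, a log2 fold change of -0.21 beside -0.82 in RNA, which gave a TE change of 0.61 (SE 0.23, adjusted p = 0.569, edgeR). For Atp5o, RNA changed by -0.06 in the knockout and footprints by 0.42, which gave a TE change of 0.45. For Cox6a1, RNA changed by -0.62 and footprints by -0.41, which gave a TE change of 0.18.

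**Figure D4:**
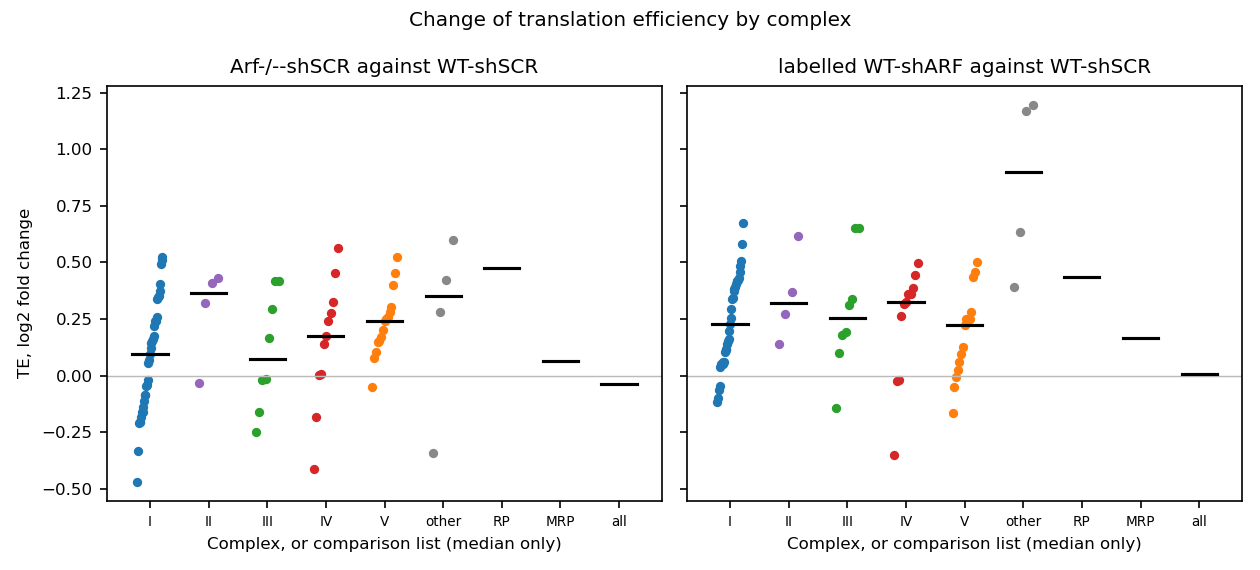
Log2 fold change of TE (vertical axis) of each member by complex, with the median as a bar, beside the medians of cytosolic ribosomal proteins (RP), mitochondrial ribosomal proteins (MRP) and all genes tested. Most members lie above 0 in both panels, and the medians of complexes I to V, 0.07 to 0.36, lie below those of the cytosolic ribosomal proteins, 0.47 and 0.43.

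The level of TE itself ranged widely between members of one complex. Footprints were cut with RNase T1 and RNA was broken by heat in a carbonate buffer. The part of this difference in levels between genes was not tested. On the log2 scale of footprint CPM over RNA CPM, 76 members had a median of 0.08 in WT-shSCR, 0.32 in the libraries labelled WT-shARF and 0.26 in Arf-/--shSCR. The medians over all genes were -0.04, -0.03 and -0.05. In WT-shSCR, complex IV had the highest median of the 5 complexes, at 0.36 (range -0.41 to 1.64), and complex I the lowest, at -0.14 (range -0.86 to 1.75). The highest levels were those of Ndufa5 (1.75), Uqcrq (1.66), Ndufa4 (1.64), Uqcrb (1.40), Cox7b (1.29) and Ndufb3 (1.01), all of them small accessory subunits. Among the lowest were those of the supercomplex factor Cox7a2l (-0.97), Ndufb4 (-0.86), Ndufb8 (-0.79) and Sdhb (-0.79), where Sdhb carries the iron-sulfur clusters of complex II. In the knockout the 6 genes that were highest in WT-shSCR, in the same order, had levels of 1.60, 1.97, 1.66, 1.17, 1.15 and 0.84.

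Levels per coding length (CPM per kilobase of coding sequence, RPKM) set subunits of one complex side by side. For footprints, the part of the nuclease in differences between genes was not tested here either. In complex II, whose 4 subunits are present once each, RNA in WT-shSCR was 100 ± 3.37 for Sdha, 240.5 ± 0.418 for Sdhb, 223 ± 6.55 for Sdhc and 159 ± 9.16 for Sdhd (mean ± SD RPKM, n = 2). Footprints were 126 ± 15.4, 139 ± 31.6, 238 ± 21.5 and 245 ± 5.93 RPKM in the same order. In these WT-shSCR footprints, Sdha and Sdhb, the hydrophilic pair, were close to each other, as were the membrane anchors Sdhc and Sdhd. In RNA, Sdha and Sdhb differed by more than their spread. Under the WT-shARF label the anchors were apart in footprints, at 206 ± 17.6 RPKM for Sdhc and 280 ± 0.741 for Sdhd. In the knockout they lay at 225 ± 34.2 and 257 ± 27.9 RPKM.

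In complex V, the head holds several copies each of α and β around a single γ, and the ring holds several copies of c. Footprints in WT-shSCR were 957 ± 11.1 RPKM for Atp5b, 529 ± 32.2 for Atp5a1 and 232 ± 12.6 for Atp5c1. Among the stalk subunits they were 247 ± 11.4 RPKM for Atp5f1, 230 ± 11.2 for Atp5o, 334 ± 15.1 for Atp5j and 406 ± 22.7 for Atp5h. In WT-shSCR, Atp5c1, Atp5f1 and Atp5o had overlapping ranges of mean ± SD. Under the WT-shARF label Atp5f1, at 228 ± 15.6 RPKM, lay below Atp5c1 at 291 ± 23.8 and Atp5o at 299 ± 17.1. In the knockout Atp5c1 lay at 298.5 ± 2.61 RPKM, Atp5f1 at 277 ± 2.04 and Atp5o at 306 ± 28.6. The c-subunit genes lay in WT-shSCR at 1025 ± 18.4 RPKM for Atp5g3, 403 ± 28.1 for Atp5g1 and 347 ± 40.6 for Atp5g2. Of these the last 2 had overlapping ranges of mean ± SD, though both Atp5g1 libraries (423 and 384 RPKM) lay above both Atp5g2 libraries (318 and 375 RPKM). Under the WT-shARF label Atp5g1 was again above Atp5g2, at 494 ± 18.4 and 458 ± 6.12 RPKM. In the knockout Atp5g1, at 460 ± 2.6 RPKM, lay below Atp5g2. These differences between genes were not tested. In WT-shSCR, Atp5g3 was the highest of the 15 in footprints. Its RNA there, 584 ± 34.4 RPKM, lay below that of Atp5b at 1281 ± 37.4 RPKM and of Atp5a1 at 603 ± 37.5 RPKM, with the spread overlapping the latter. In Arf-/--shSCR the footprints of Atp5g3 were 1315 ± 6.85 RPKM and those of Atp5g2 505 ± 15.8 RPKM.

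**Figure D5:**
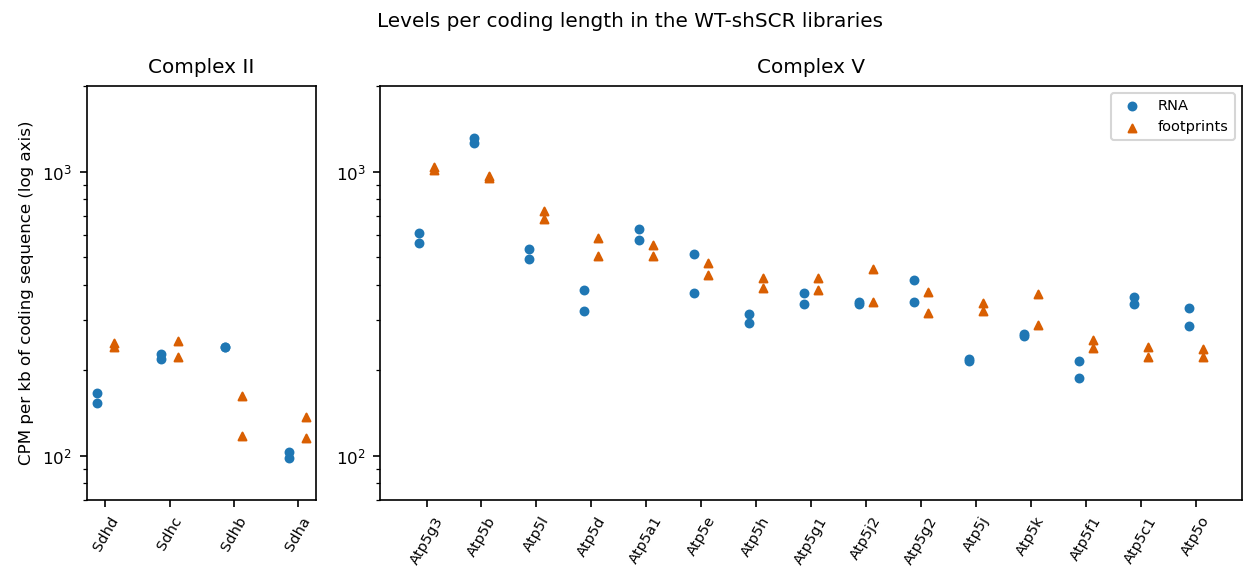
Level per coding length (vertical log axis, CPM per kilobase) of each subunit of complex II and complex V in the 2 WT-shSCR libraries, with RNA as circles and footprints as triangles, ordered by footprints. In complex V, Atp5g3 and Atp5b lead in footprints at 1025 and 957 and Atp5c1, Atp5o and Atp5f1 close the order at 230 to 247.

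In CPM, which is not corrected for length, Uqcrc1, a core subunit of complex III, had the most RNA of its complex, at 437 to 616 CPM. Per length, Uqcr11 was higher in WT-shSCR, at 420.3 RPKM against 326 RPKM for Uqcrc1, and Sdha was the lowest RNA of complex II in all 3 groups. None of Uqcrc1, Sdha and Sdhb passed in any comparison. Ndufv3 was the lowest member of complex I per length in both assays and in all 3 groups, at 27.3 RPKM of RNA and 18.7 RPKM of footprints in WT-shSCR. There the medians of the complex were 137 and 139.6 RPKM. The coding length used joins the coding bases of all annotated transcripts of a gene, which lowers the value where a long coding exon is little used. The part of this in the low rank of Ndufv3 was not tested. Cox7c stood far below the rest of complex IV, at 22.3 RPKM of RNA and 28.7 RPKM of footprints. Without it, the other 10 tested members of complex IV spanned 2.14-fold in footprints and 4.22-fold in RNA in WT-shSCR. The alignments that were not unique and so not counted were 79.2% to 81.4% in RNAseq libraries, and their part in the low level of Cox7c was not tested.

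Genes that work with the members were described by the same counts. Among 11 further subunits and carriers, footprints of Cycs, cytochrome c, rose in the knockout (log2 fold change 0.65, SE 0.11, adjusted p = 6.38e-05, edgeR). Of 10 tested, only Cycs passed there, which is 10% against 9.57% of all genes. RNA of Etfb, which passes electrons to the chain from fatty acid oxidation, fell in the labelled libraries (-0.58, SE 0.16, adjusted p = 0.0208, edgeR). Etfb was 1 of 10 tested, which is 10% against 4.17% of all genes. Of 49 assembly factors tested, RNA of 1 fell in the knockout (Cox14, -1.41, SE 0.41), which is 2.04% against 3.99% of all genes, and of 1 rose in the labelled libraries (Coa5, 1.58, SE 0.49), 2.04% against 3.11%. Of 11 tested regulators of OXPHOS transcription, footprints of 1, the coactivator Pprc1, rose in the knockout (0.51, adjusted p = 0.0129, edgeR). This is 9.09% against 9.57% of all genes, and so close to the background.

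In the TCA cycle, which feeds the chain, footprints of Idh2 rose in the knockout by a log2 of 0.82 (SE 0.14, adjusted p = 7.08e-05, edgeR) and in the labelled libraries by 0.63 (SE 0.15, adjusted p = 0.00397, edgeR), as 1 of 2 that rose among 14 genes in each. These are 14.3% against 9.57% and 5.63% of all genes, and 1 gene (7.14%) fell in the labelled libraries against 5.5%. Idh2 RNA rose too in the knockout (0.76, SE 0.155, adjusted p = 0.00398, edgeR), as 1 of 14 genes, 7.14% against 3.94% of all genes. Its RNA change of 0.38 in the labelled libraries did not pass. Idh2 makes 2-oxoglutarate with NADPH in the matrix. Of 19 carriers, channels and import genes, footprints of 6 (31.6%) rose in the knockout, against 9.57% of all genes. In the labelled libraries 3 (15.8%) rose, against 5.63%, and 2 (10.5%) fell, against 5.5%. Hspd1, the mitochondrial chaperonin, rose in RNA and footprints of both comparisons (log2 fold changes of 0.51 and 0.53 in the knockout and of 0.52 and 0.49 in the labelled libraries), and the footprints of Slc25a5, an ADP/ATP carrier, rose by 0.53 and 0.38. For comparison, footprints of 77 of 78 cytosolic ribosomal protein genes (98.7%) rose in the knockout and of 58 (74.4%) in the labelled libraries. Of 77 mitochondrial ribosomal protein genes, footprints of 5 (6.49%) rose in the knockout and of 2 (2.6%) in the labelled libraries. Both shares lie below the 9.57% and 5.63% of all genes. In the labelled libraries 1 of the 77 (1.3%) fell, against 5.5%.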

How the data were processed

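The authors made footprints with RNase T1 in place of RNase I and fragmented the RNA by heat in a carbonate buffer. Adapters, barcodes and molecular identifiers were removed by the authors with fastx_clipper, cutadapt and UMI-tools, and rRNA and noncoding RNA reads with Bowtie2. TopHat (mm10) and HTSeq (coding sequence features) then gave the deposited counts, which are not normalized. Versions are not given in the sources used here. Rows for unassigned or non-unique alignments (94.7% to 96.8% of RNAseq and 57.1% to 64.8% of footprint rows' totals) were left out of library sizes.

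RNA and footprints (4 libraries a fit) and TE (an assay by condition interaction, 8 libraries) were tested with edgeR 4.0.16 in R 4.3.3 on all genes past filterByExpr, with TMM factors, Benjamini-Hochberg adjustment over all genes and a threshold of 0.05; SE is the log2 fold change divided by the root of F. The scripts were tested on simulated data. CPM used TMM factors per assay, and RPKM used coding lengths of GENCODE M21 (GRCm38), in which all 84 members matched by symbol or older symbol. A coding length is the union of coding bases over all annotated transcripts of a gene. Of 2 loci named Atp5o the one with the lower gene number was used. Start windows are from RefSeq; protein sequences were not analysed here.

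Alternatives were DESeq2 1.42.0, RLE factors, TMM without ribosomal protein and 5′-TOP genes, no filter, at least 10 counts, all groups in one fit, a replicate block, a coding length trend and leaving out each replicate; a crossed replicate block was added after seeing the data. Named are members called in any comparison, the most abundant member of each complex (1 of these is not reported here), Atp5b and isoform pairs; Uqcr11, Atp5e, Ndufv3, Cox7c, Ndufa5, Uqcrq, Uqcrb, Cox7b, Ndufb3, Ndufb4 and Ndufb8 were named after their values were seen. The members and lists were chosen with earlier results of these data known.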

Additional observations from a re-analysis of the deposited data

Results flagged for a closer look

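A direct test of Arf-/--shSCR against the libraries labelled WT-shARF found a difference in footprints of 1 member. Atp5j footprints were higher in Arf-/--shSCR than in the libraries labelled WT-shARF by a log2 fold change of 0.48 (SE 0.12, adjusted p = 0.0205 from edgeR over all 10941 genes, n = 2 and 2), with both knockout libraries above both labelled ones. Leaving out 1 library at a time gave 0.37 to 0.62, and the call was kept in 2 of 4 cases. It was lost without either labelled library.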

How the results depend on the processing

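With 2 replicates per group the counts of members called rest on single libraries, and leaving out 1 library of a comparison at a time gave 0 to 3 members called in RNA (4 with all) and 0 to 5 in footprints (7 with all) in the knockout, and 2 to 10 (7) and 0 to 5 (4) in the libraries labelled WT-shARF. Between the knockout and the labelled libraries it gave 0 to 2 in RNA (0 with all) and 0 to 2 in footprints (1 with all), and 0 throughout in TE of all 3 comparisons. The members' median log2 fold change ranged over these fits from -0.20 to -0.11 for RNA, 0.006 to 0.044 for footprints and 0.13 to 0.22 for TE in the knockout, and from -0.27 to -0.09, 0.00 to 0.04 and 0.22 to 0.26 in the labelled libraries. Between those groups it ranged from -0.01 to 0.07, -0.049 to -0.023 and -0.11 to 0.044.

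DESeq2 called 0 members in RNA in the knockout, and 4 in RNA and 1 in footprints in the labelled libraries. Without a filter, the members' median log2 fold change was 0.038 for footprints and 0.28 for TE in the knockout, and with the coding length trend removed it was 0.14 for TE in the labelled libraries. The TE change of Atp5a1 in the knockout, -0.05, turned to 0.078 without a filter and to 0.014 with all groups in one fit, and ranged from -0.104 to 0.085 with 1 library left out. In the labelled libraries those of Atp5l and Atp5g2 ranged from -0.261 to 0.124 and from -0.028 to 0.423. The causes were not tested.

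A replicate block gave 2 members in RNA in the knockout, and in footprints 7 in the labelled libraries and 4 between the knockout and the labelled libraries. The labels give the same replicate numbers in each group but not what they share. With 2 pairs, deviations of equally numbered RNAseq libraries from their group means correlated at -0.12 in the knockout comparison over 5986 genes with at least 30 counts, and crossed numbers, as a block, gave 8 members in RNA there and 1 between the knockout and the labelled libraries. At 1578627 to 5157572 reads per library, members below a few CPM cannot be resolved.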
